A study of Mus musculus with 4 samples.

Results

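Ly6 and uPAR domain proteins are small cysteine-rich proteins of the cell surface, and their transcripts were followed in cultured mouse bladder epithelium with and without p63. The set named 10 genes, Ly6d, Ly6a, Ly6e, Ly6k, Ly6g6c, Psca, Lypd3, Lypd2, Lynx1 and Plaur, and a gene was measured where the platform annotation gave it a transcript cluster (a gene-level group of probes) with no other gene's symbol. This held for 7 of the 10, among 14860 genes with such a cluster. Ly6a and Lypd2 were matched to no cluster and Ly6g6c shares its cluster with another symbol, so these 3 were not analysed here. Each of the 7 had 1 cluster. The genes were chosen with the difference between the genotypes already known, so their values below are a description with no test.

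The samples were 2 p63 knockout and 2 wild-type cultures, 1 Affymetrix mouse exon array each. All 4 came from bladders of newborn C57BL/6j mice that were digested with collagenase and grown over 3T3 cells, a mouse fibroblast line, from which epithelial stem cell colonies were picked for RNA. Neither the knockout allele, nor the number of pups, nor whether the replicates came from separate animals is stated in the labels, so p-values measure only the spread between these arrays, which may be technical. Feeder RNA can be carried along with a picked colony.

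The shared fold, called the LU domain, is a three-fingered loop structure held by disulphide bonds. Most members sit on the outer face of the membrane through a glycosylphosphatidylinositol (GPI) lipid anchor, and the family takes part in cell adhesion, proteolysis at the cell surface and the tuning of nicotinic acetylcholine receptors. PSCA, prostate stem cell antigen, is a known surface protein of the bladder lining, and LY6D and LYPD3 are known from stratified epithelia. p63 is the transcription factor that marks the basal cells of such epithelia.

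Trp63 was at 4.60 and 4.74 log2 intensity units on the knockout arrays and at 8.98 and 8.99 on the wild-type arrays, a difference of -4.32 (limma adjusted p = 0.0153). Over all 23332 clusters, Pearson's r was 0.932 between the knockout arrays and 0.977 between the wild-type arrays. The epithelial label was checked on marker lists, given as log2 of summed intensity. General epithelial genes (6 of 8 measured) were at 11.78 to 11.97 in knockout and 12.48 to 12.54 in wild-type cultures, and limma called 0 of them (1 higher and 4 lower at an unadjusted p under 0.05). Basal epithelial genes (8 of 8 measured, 6 called lower) were at 8.66 to 8.95 in knockout and 12.50 to 12.61 in wild-type cultures. Superficial urothelial genes (8 of 8, 6 called lower) were at 9.45 to 10.18 in knockout and 13.22 to 13.41 in wild-type cultures. Krt20 ran against the others on that list, with 9.64 and 8.72 in knockout and 7.04 and 7.13 in wild-type cultures (not called), and made up most of the knockout sum; it was singled out with its values known. Fibroblast and feeder markers (14 of 14, 0 called by limma, 1 higher and 2 lower at an unadjusted p under 0.05) were at 12.49 to 12.98 in knockout and 12.74 to 12.91 in wild-type cultures.

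Of the 7 genes, 4 were lower in knockout cultures by more than 1 log2 unit, namely Ly6d, Psca, Ly6k and Lypd3, and the other 3, Lynx1, Ly6e and Plaur, differed by less than 0.5. In the limma fit over all clusters, 1 of the 7 (Ly6d, lower) had a Benjamini-Hochberg adjusted p under 0.05, and 0.527% of all clusters did (0.386% lower and 0.141% higher). The groups did not overlap for 7 of the 7 genes, with 5 lower and 2 higher in the knockout, and this was so for 57.1% of all clusters (20.9% lower and 36.2% higher). The median log2 difference of the 7 was -2.13, and that of all clusters was 0.12. These counts are given for completeness, since the genes were chosen on the same contrast. In RNA from whole colonies, fewer cells of a type and less RNA per cell cannot be told apart.

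**Figure D1:**
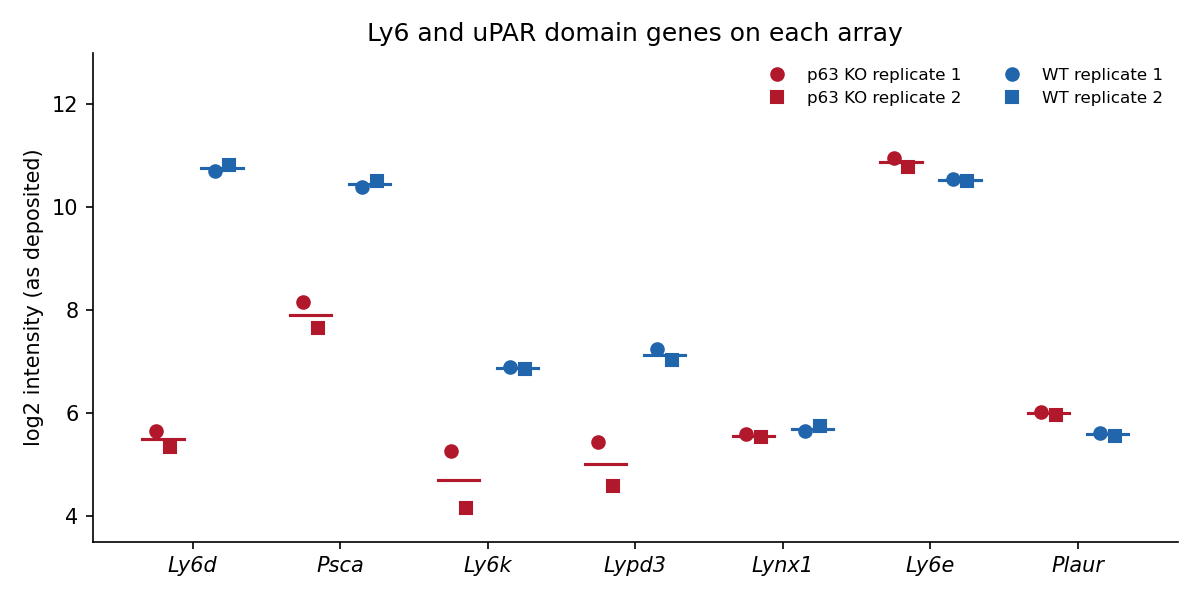
Log2 intensity of the 7 measured genes on each array (p63 KO left in red, WT right in blue, circles replicate 1, squares replicate 2, bars group means of 2 arrays). Ly6d, Psca, Ly6k and Lypd3 lie lower in KO with wider KO spread, while Lynx1, Ly6e and Plaur lie within 0.5 of WT.

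Ly6d, a GPI-anchored marker of stratified and squamous epithelial cells that also marks early B lineage cells, had the largest difference of the 7. It was at 5.66 and 5.34 on the knockout arrays and at 10.70 and 10.82 on the wild-type arrays. Both knockout values lay at least 5.04 log2 units below both wild-type values. The means were 5.50 ± 0.23 in knockout and 10.76 ± 0.084 in wild-type cultures (SD, n = 2 each), a log2 difference of -5.26 and 38.4-fold lower in the knockout. Squamous and cornified genes did not share one direction: of 11 measured of 13, 6 were higher and 5 lower (1 called higher and 2 lower), with a median difference of 0.022. Among the higher ones Krt1, Lor and Sprr1b were dim, with wild-type means of 3.82, 3.72 and 4.69. Their differences were 0.24, 0.022 and 0.37, and olfactory receptors, taken below as unexpressed, had a median difference of 0.47. The squamous and cornified list had a log2 of summed intensity of 9.69 to 10.21 in knockout and 12.67 to 12.83 in wild-type cultures. Most of the wild-type sum was Sprr1a (mean 7.87 in knockout and 12.46 in wild-type cultures, not called). The calls on the list were Ivl (-4.29) and Krt13 (-3.05), both lower, and Scel (2.51), higher. Leukocyte markers (10 of 10 measured) included 0 calls by limma, with 3 higher and 1 lower at an unadjusted p under 0.05. The B cell genes among them had opposite signs, Cd79a differing by -1.63 and Ms4a1 by 0.77, neither of them called. Cd79a was at 3.32 and 2.65 in knockout and 5.01 and 4.22 in wild-type cultures. Ms4a1 was at 3.46 and 3.16 in knockout and 2.59 and 2.49 in wild-type cultures. Olfactory receptor medians were about as low, at 3.35 and 3.34 in knockout and 2.89 and 2.80 in wild-type cultures, so the sign of Ms4a1 says little. These marker genes were picked for mention after their values were seen. The part of these cell types in the Ly6d difference was not tested.

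Psca, whose protein is found on lining cells of the bladder, stomach and prostate, kept a higher knockout signal than Ly6d relative to its own wild-type level. It was at 8.17 and 7.66 on the knockout arrays and at 10.39 and 10.52 on the wild-type arrays. The lowest wild-type value stood 2.23 above the highest knockout value, and the knockout arrays were 0.51 apart. Its means of 7.91 ± 0.36 in knockout and 10.46 ± 0.091 in wild-type cultures (SD, n = 2 each) made it 5.83-fold lower in the knockout.

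Ly6k, a GPI-anchored protein best known from the testis, where in the mouse it works with Tex101 in sperm, was at 5.26 and 4.15 on the knockout arrays and at 6.90 and 6.86 on the wild-type arrays. Of the 7 genes it was the one whose knockout arrays were farthest apart, by 1.11, while its wild-type arrays differed by 0.044. The groups were still 1.60 apart at their nearest values. The means of 4.70 ± 0.78 in knockout and 6.88 ± 0.031 in wild-type cultures (SD, n = 2 each) gave a difference of -2.18, or 4.52-fold lower in the knockout. Leaving out knockout replicate 1 gave a difference of -2.73, and leaving out knockout replicate 2 gave -1.62.

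Lypd3, which encodes C4.4A, a structural relative of the urokinase receptor made in the suprabasal layers of stratified epithelia, was at 5.44 and 4.58 on the knockout arrays and at 7.25 and 7.03 on the wild-type arrays. As with Ly6k, the knockout arrays were spread, by 0.86, and both lay below the wild-type arrays, here by at least 1.59. The means were 5.01 ± 0.61 in knockout and 7.14 ± 0.15 in wild-type cultures (SD, n = 2 each), 4.38-fold lower in the knockout. With knockout replicate 1 left out the difference was -2.56, and with replicate 2 left out it was -1.70.

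Plaur encodes uPAR, the receptor that holds urokinase at the cell surface. It was at 6.03 and 5.97 on the knockout arrays and at 5.62 and 5.56 on the wild-type arrays. The knockout arrays were the higher ones, and the nearest values of the groups were 0.35 apart. The means of 6.00 ± 0.043 in knockout and 5.59 ± 0.041 in wild-type cultures (SD, n = 2 each) gave a difference of 0.41, or 1.33-fold higher in the knockout, and after quantile normalization the difference was 0.44.

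Ly6e, a widely expressed interferon-induced surface protein that in the mouse is the receptor for the placental fusogen syncytin-A, was at 10.97 and 10.79 on the knockout arrays and at 10.55 and 10.51 on the wild-type arrays. The groups were 0.24 apart at their nearest values. The means were 10.88 ± 0.13 in knockout and 10.53 ± 0.029 in wild-type cultures (SD, n = 2 each), a difference of 0.35 and 1.27-fold higher in the knockout. After quantile normalization, which brought the median difference of all clusters to 0.0029 in place of 0.12, the Ly6e difference was 0.24. The RefSeq table also lists a pseudogene of Ly6e, and whether its transcript reaches the same probes was not tested.

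Lynx1, which encodes a GPI-anchored brake on nicotinic acetylcholine receptors best known from neurons, was at 5.60 and 5.54 on the knockout arrays and at 5.66 and 5.74 on the wild-type arrays. The groups were 0.061 apart, about as far as the replicates of each group were from each other. The means of 5.57 ± 0.045 in knockout and 5.70 ± 0.060 in wild-type cultures (SD, n = 2 each) differed by -0.14. RefSeq gives SLURP-2 as a synonym of Lynx1 beside a separate Slurp2 gene, so the cluster may take in both.

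All 7 genes were higher on knockout replicate 1 than on knockout replicate 2, with a median gap of 0.32, whereas 49.5% of all clusters were higher on knockout replicate 1 and their median gap was -0.0053. On the wild-type arrays 4 of the 7 were higher on replicate 1, as were 48.1% of all clusters. The same side was seen for 7 of 8 basal markers (median gap 0.25), 6 of 8 superficial urothelial markers (median gap 0.26), 4 of 6 general epithelial markers (0.13), 8 of 10 endothelial markers (0.17) and 5 of 6 smooth muscle markers (0.20). Of leukocyte markers, 5 of 10 were higher on knockout replicate 1 (0.092). The median gap had the other sign for fibroblast and feeder markers, with 2 of 14 higher on knockout replicate 1 (-0.48), squamous and cornified markers, with 3 of 11 (-0.13), and neutrophil markers, with 2 of 7 (-0.32). The part of these cell types in the gap between the knockout arrays was not tested.

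Low values also differed between the genotypes in a general way. The 719 clusters of olfactory receptors, genes taken here as unexpressed (a guide picked with the values in view), had a median log2 difference of 0.47 as deposited and 0.070 after quantile normalization. Their 95th percentile was 5.38 and 5.27 on the knockout arrays and 4.84 and 4.81 on the wild-type arrays. The knockout values of Ly6k (both arrays) and of Lypd3 on replicate 2 lay below that level. Those of Ly6d and Lynx1, and of Lypd3 on replicate 1, lay just above it. Folds measured from such values may be too small.

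Plaur and Lypd3 lie on mouse chromosome 7 with 8 other protein-coding genes between them in RefSeq GRCm38. Of the 5 measured genes between them, 0 were called (limma), 1 had an unadjusted p under 0.05, and their log2 differences ran from -0.70 to 0.22. The promoter windows of this pair are shown because the genes are related and neighbouring but had unlike differences, 0.41 for Plaur and -2.13 for Lypd3. RefSeq's table held windows (250 bases before to 50 after the start) for these 2 of the 7 genes. Both are on the plus strand of GRCm38.p6, chr7:24636320-24636619 for Lypd3 and chr7:24462233-24462532 for Plaur, written 5′ to 3′ with motif matches on either strand in capitals.
Lypd3: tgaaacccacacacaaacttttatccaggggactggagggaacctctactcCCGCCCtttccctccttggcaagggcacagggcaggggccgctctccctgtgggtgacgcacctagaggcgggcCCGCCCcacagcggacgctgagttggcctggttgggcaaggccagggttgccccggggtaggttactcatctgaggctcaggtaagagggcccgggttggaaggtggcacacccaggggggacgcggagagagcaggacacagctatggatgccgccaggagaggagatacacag
Plaur: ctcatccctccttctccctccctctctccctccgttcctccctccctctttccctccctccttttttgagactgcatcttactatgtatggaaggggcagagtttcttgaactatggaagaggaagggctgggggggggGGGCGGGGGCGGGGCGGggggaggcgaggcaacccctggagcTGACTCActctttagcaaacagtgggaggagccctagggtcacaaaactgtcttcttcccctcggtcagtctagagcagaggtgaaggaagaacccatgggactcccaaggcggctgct
The Lypd3 window held the GC box GGGCGG at 2 places, at -199 to -194 and -125 to -120 from the start, in each case on the minus strand. The Plaur window held 3 GC boxes in a row between -111 and -95, the last of which shares a base with the one before it, and 1 AP-1 motif TGANTCA at -69 to -63. A GC box was present in 35.7% and an AP-1 motif in 7.81% of all 32851 windows. A single decamer of the p53-family response element, present in 8.36% of windows, and the TATA box TATAAA, present in 13.6%, had no match in either window. The windows were 64.0% (Lypd3) and 59.3% (Plaur) G or C, with a median of 52.7% over all windows.

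The other 5 measured genes lie in the Ly6 cluster of chromosome 15. In RefSeq order between Psca and Gpihbp1 there are 29 protein-coding genes, of which 15 were measured. The lower genes Psca, Ly6d and Ly6k had other measured genes between them, but most of these were too dim to show a fall. Psca, at one end, is followed by Them6, which is no family member, at -0.68, and by Slurp1 (a secreted family member of the skin), at 4.39 and 3.67 in knockout and 3.87 and 3.85 in wild-type cultures. Lynx1 and then Ly6d come next among the measured genes, with differences of -0.14 and -5.26, followed by Ly6g6g at -0.16 and Ly6k at -2.18. Them6, Slurp1 and Ly6g6g lay below the olfactory receptor level used above on both wild-type arrays (4.84 and 4.81). Whether the fall skips these genes therefore cannot be decided. Lynx1 lay above that level, at 5.66 and 5.74 in wild-type cultures. Of the 10 measured genes of the stretch outside the set, limma called 0, and 2 had an unadjusted p under 0.05. The differences of the 10 ran from -1.02 to 1.04. Only Gpihbp1 among them lay above that level on both wild-type arrays, so the lack of calls says little about a fall in the rest.

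**Figure D2:**
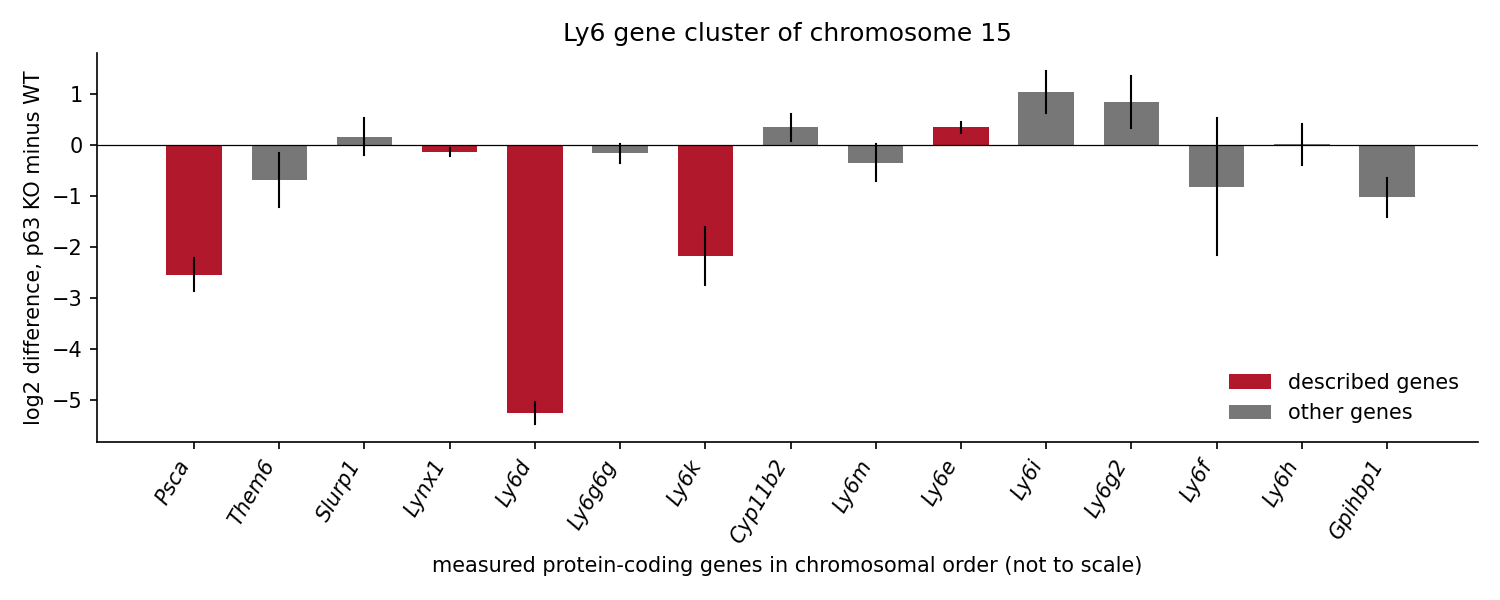
Log2 difference, p63 KO minus WT, of the 15 measured genes of the chromosome 15 cluster in chromosomal order, not to scale (red, described genes; grey, others; black lines, lowest to highest of the 4 KO-WT array pairs). Psca, Ly6d and Ly6k stand below the genes next to them, with Lynx1 near 0 beside Ly6d. Most of the genes next to them were too dim to show a fall.

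The rest of the family gave no call. Of 50 other Ly6 and uPAR family genes listed, 25 were measured, and limma called 0 of them (0.527% of all clusters were called). Only Gpihbp1, Ly6g6e, Lypd1 and Spaca4 lay above the olfactory receptors' 95th percentile on both wild-type arrays (4.84 and 4.81). A fall could hardly be seen in most of the rest, so the lack of calls says little about them. At an unadjusted p under 0.05, 6 were higher and 2 lower, or 8 of 25, where 22.3% of all clusters passed (14.6% higher and 7.70% lower). The median difference was 0.014. The lowest was that of Gpihbp1, which carries lipoprotein lipase across the endothelium, at 5.62 and 5.30 on the knockout arrays and 6.26 and 6.70 on the wild-type arrays (difference -1.02, adjusted p = 0.143). Of endothelial markers (10 of 10 measured, 0 called by limma, 0 higher and 3 lower at an unadjusted p under 0.05), 8 were lower and 2 higher in knockout cultures. The groups overlapped for 5 of them. Their log2 of summed intensity was 7.595 to 7.775 in knockout cultures, and 9.004 and 8.215 on wild-type replicates 1 and 2. Gpihbp1 was higher on wild-type replicate 2 than on replicate 1. The part of endothelial cells in the Gpihbp1 value was not tested. The highest was that of Ly6i, at 4.05 and 4.33 in knockout and 2.86 and 3.42 in wild-type cultures (difference 1.04, adjusted p = 0.152). Ly6h, a neuronal member that acts on nicotinic receptors, differed by 0.014 (adjusted p = 0.979).

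**Figure D3:**
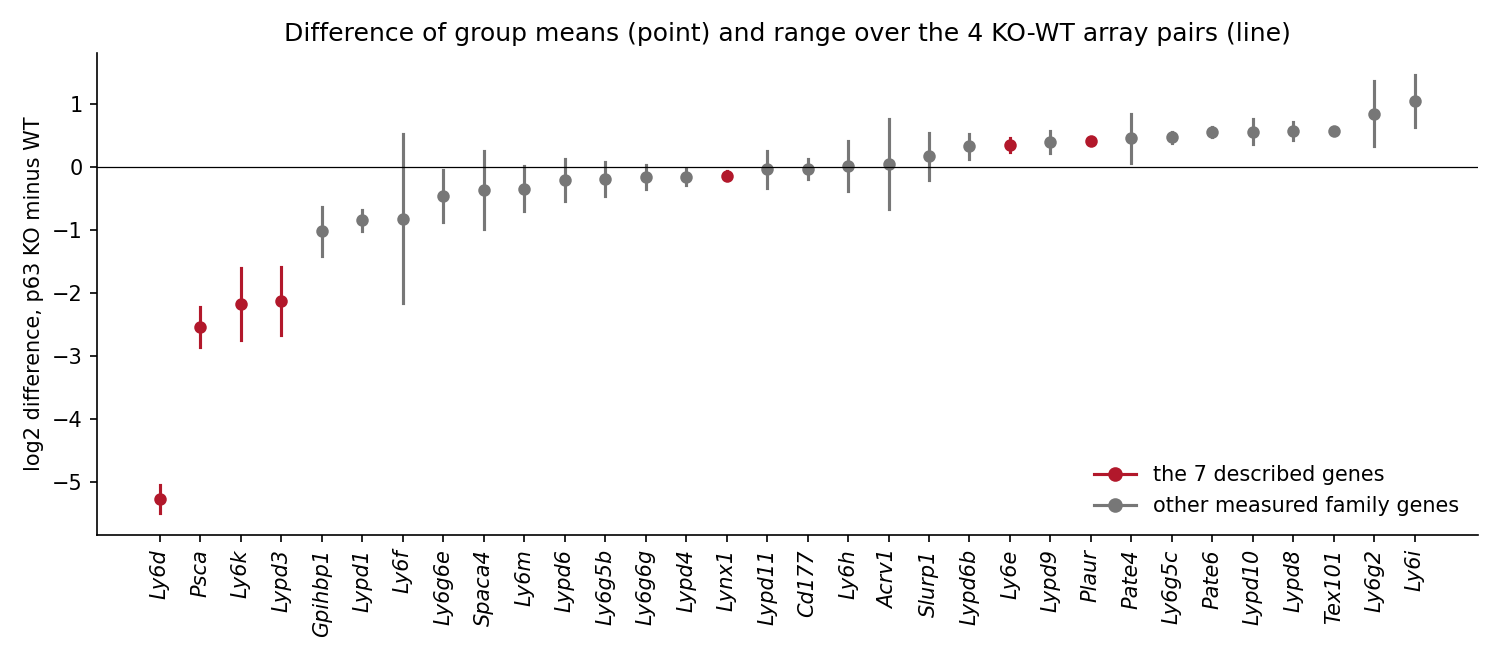
Log2 difference, p63 KO minus WT, of the 7 described genes (red) and 25 other measured family genes (grey), points being differences of group means and lines the range over the 4 KO-WT array pairs. Ly6d, Psca, Ly6k and Lypd3 lie lowest, between -5.26 and -2.13, and the other family genes run from -1.02 to 1.04.

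Around uPAR, the genes of plasminogen activation and its partners gave 0 calls among 23 measured of 27 listed (limma; 2 higher and 2 lower at an unadjusted p under 0.05), with a median difference of 0.18. Plau, which encodes urokinase, the ligand of uPAR, was at 8.05 and 8.16 on the knockout arrays and 7.99 and 7.55 on the wild-type arrays, a difference of 0.34 (adjusted p = 0.433). Plat, the tissue-type activator, had the lowest difference of the list, at 5.67 and 6.18 in knockout and 8.05 and 7.47 in wild-type cultures (-1.84, adjusted p = 0.0959). It thus ran opposite in sign to Plau and Plaur, without passing the test. Mrc2, an endocytic collagen receptor that associates with uPAR, differed by 0.18 (adjusted p = 0.553). Mmp2, a gelatinase, had the highest difference at 0.76 (adjusted p = 0.34), with means of 9.64 ± 0.73 in knockout and 8.88 ± 0.17 in wild-type cultures (SD, n = 2 each; limma).

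**Figure D4:**
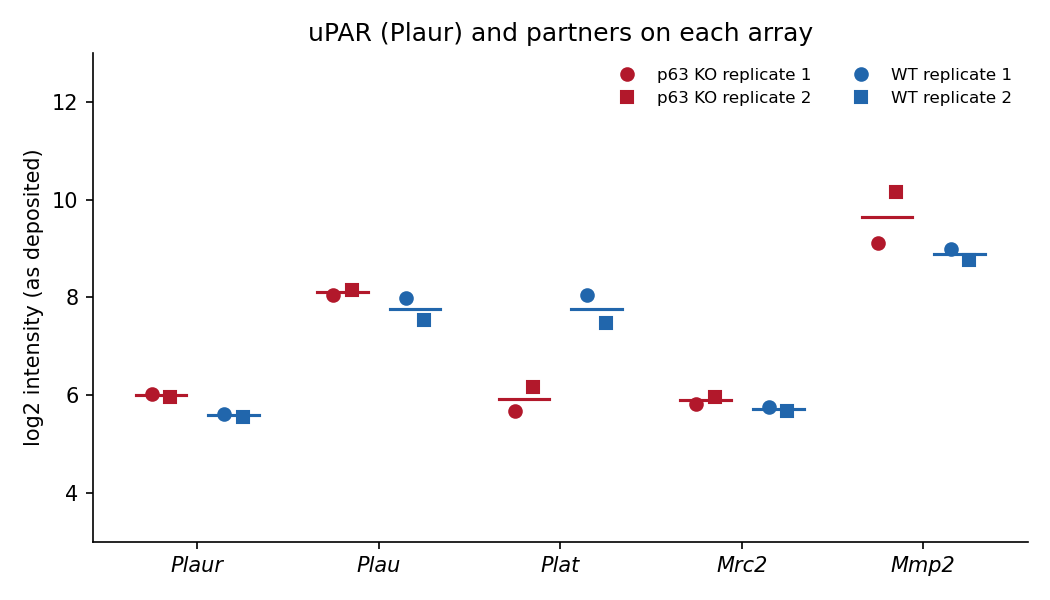
Log2 intensity of Plaur and the named partners Plau, Plat, Mrc2 and Mmp2 on each array (p63 KO left in red, WT right in blue, circles replicate 1, squares replicate 2, bars means of 2 arrays). Plat is the gene here with both KO values below both WT values.

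Nicotinic acetylcholine receptor genes, whose products LYNX1 and several relatives bind, were measured for 14 of 16 subunits, with 0 called (limma; 2 higher and 0 lower at an unadjusted p under 0.05) and a median of 0.31. That median was below the 0.47 of the olfactory receptor clusters. Chrna5 had the highest difference, at 3.12 and 3.39 in knockout and 2.29 and 2.19 in wild-type cultures (1.01, adjusted p = 0.106), and Chrng the lowest at -0.035 (adjusted p = 0.917).

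Of 30 genes that build and remodel GPI anchors, 23 were measured, 0 were called (limma; 0 higher and 3 lower at an unadjusted p under 0.05) and the median was -0.070. Pigh, a subunit of the enzyme of the first step, had the lowest difference, at 5.13 and 4.14 in knockout and 5.65 and 5.84 in wild-type cultures (-1.11, adjusted p = 0.21). Dpm2, a subunit in the supply of mannose donors, had the highest at 0.42 (adjusted p = 0.269).

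Interferon response genes were set beside Ly6e. Of 26 listed, 20 were measured, 0 were called (limma; 1 higher and 0 lower at an unadjusted p under 0.05), and the median was 0.053. Bst2, or tetherin, a virus-restricting protein that is itself GPI-anchored, had the highest difference, at 8.39 and 8.20 in knockout and 6.31 and 6.87 in wild-type cultures (1.71, adjusted p = 0.0871), and Gbp2 the lowest at -0.14 (adjusted p = 0.894). Among other binding partners, 3 of 4 were measured and 0 were called (limma; 2 higher and 0 lower at an unadjusted p under 0.05; median 0.72). Agr2, a secreted ligand of LYPD3, differed by 0.31 (adjusted p = 0.363), and Lpl, the lipase carried by GPIHBP1, by 1.05 (adjusted p = 0.125), the highest of the list.

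The genes with array profiles most like that of Ly6d were ranked by the root mean square difference of log2 values, each gene centred on its mean over the 4 arrays, over 14859 other genes. The nearest 5 were Acer2 (0.10), an alkaline ceramidase, Krt5 (0.18), the keratin of basal cells, Ndrg2 (0.21), Fam25c (0.26) and Ctse (0.28), which encodes cathepsin E. Acer2 has 2 clusters, and the brighter, used here, was at 4.84 and 4.59 on the knockout arrays and 10.03 and 10.27 on the wild-type arrays. Krt5 was at 5.02 and 4.77 on the knockout arrays and 10.43 and 10.60 on the wild-type arrays. Among the described genes Psca ranked 86, Ly6k 127 and Lypd3 133 in this order, ahead of Lynx1 at 4377, Ly6e at 10670 and Plaur at 11380. This ranking uses the same 4 arrays and is a description.

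**Figure D5:**
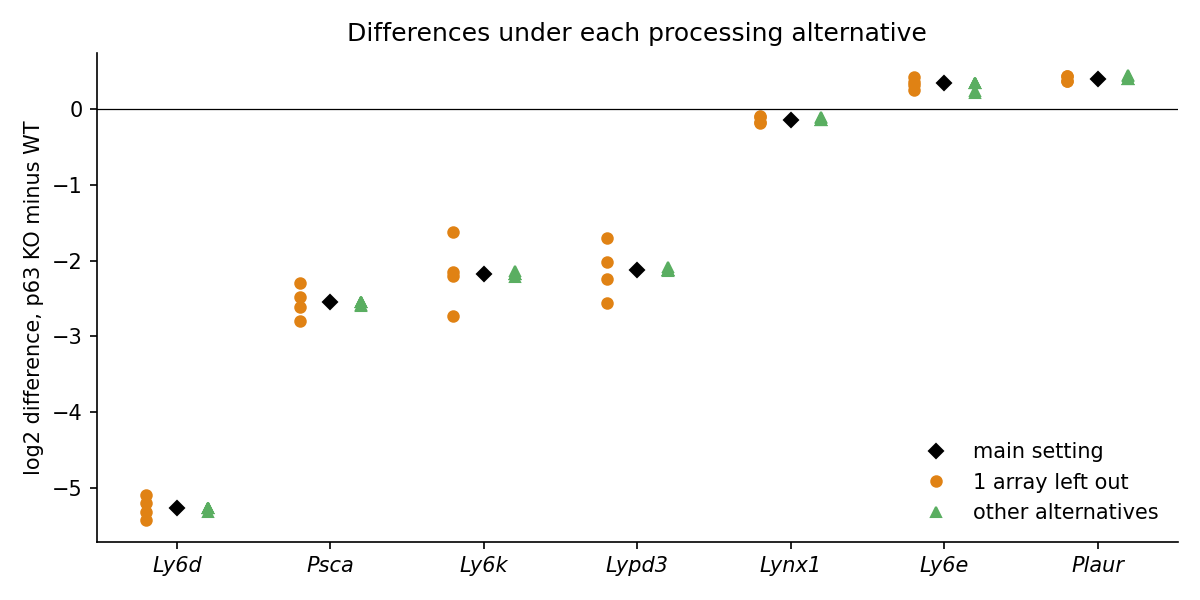
Log2 difference, p63 KO minus WT, of the 7 genes in the main setting (diamonds), with 1 array left out (circles) and under the other alternatives (triangles). Each gene keeps the side of 0 it has in the main setting, with the widest range for Ly6k, from -2.73 to -1.62.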

How the data were processed

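The authors deposited log2 intensities, 1 value per transcript cluster and array (range 0.79 to 13.92, a scale read from the values). Affymetrix Expression Console and Partek were used with build mm9, per the submitters' processing notes. No source used here states how probes were summarised or how the arrays were normalized. The precision is limited by the number of arrays, 2 per genotype. Clusters were named from GEO's annotation of the platform, with RefSeq GRCm38 for gene order and promoter sequences.

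The 4 arrays were fitted with limma 3.58.1 (R 4.3.3; lmFit and eBayes, two-sided, no covariates and no filter on dim clusters, 2 residual and 2.2 prior degrees of freedom), with Benjamini-Hochberg adjustment over 23332 clusters, checked on simulated data. A call is an adjusted p under 0.05. Where a gene has several clusters, the brightest stood for it. The genes named were the 7 described ones, Trp63, and of each pathway list (cell type marker lists aside) every call, the largest rise and fall and genes with a direct biochemical tie, plus genes of the chromosomal clusters and the 5 nearest profiles to Ly6d. The members and lists were chosen with earlier results of these data known. Same-numbered arrays are not described as pairs, and no unit other than log2 was used. Alternatives were quantile normalization, cyclic loess, filters on dim clusters, an intensity trend with a robust prior, a replicate block and leaving out each array.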

Additional observations from a re-analysis of the deposited data

How the results depend on the processing

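All 7 genes kept the sign of their difference under all 10 alternatives, which ran from -5.42 to -5.10 for Ly6d, -2.80 to -2.29 for Psca, -2.73 to -1.62 for Ly6k, -2.56 to -1.70 for Lypd3, -0.18 to -0.093 for Lynx1, 0.22 to 0.44 for Ly6e and 0.38 to 0.45 for Plaur. The counts of calls over all clusters and among the 7 genes stayed close after quantile normalization and cyclic loess, but not under the other alternatives. Over all clusters limma called 123 of 23332 in the main setting, 105 after quantile normalization and 115 after cyclic loess. It called 362 of 17499 clusters above the 25th percentile of mean level, and 524 of 11666 above the median. With an intensity trend and robust prior it called 257 of 23332. Of the 7 genes it called 1 (Ly6d) in the main setting, after quantile normalization and after cyclic loess. It called 2 above the 25th percentile and 2 with the trend (Ly6d and Psca), and 3 above the median (Ly6d, Psca and Lypd3). Where more of the 7 were called, the share of all clusters called was also larger than in the main setting. Fewer clusters were tested under the filters. Above the median 1 plasminogen gene (Plat, adjusted p = 0.0462) and 1 interferon gene (Bst2, adjusted p = 0.0386) were also called. Whichever array was left out, 0 clusters and 0 of the 7 genes were called, with 1 residual degree of freedom, so Ly6d lost its call. With the replicate number as a block, which also left 1 residual degree of freedom, 0 clusters and 0 of the 7 were called. In that fit 4525 clusters had an unadjusted p under 0.05 (limma), against 5210 without the block. The knockout and wild-type replicate 1 arrays had a correlation of 0.019 between their deviations from the group mean, over all clusters. With 2 arrays per genotype, this cannot show whether same-numbered samples shared an animal, a culture or an array batch. Averaging several clusters of a gene gave no other value for the 7 genes or the pathway lists, since each gene there had 1. No detection flags were used here, so the level at which a signal is lost in background is not known.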
